A study of Mus musculus with 17 samples.

Results

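The receptors for interleukin-3 (IL-3), granulocyte-macrophage (GM-CSF), granulocyte (G-CSF) and macrophage (M-CSF) colony-stimulating factor are described here through their 6 genes in 32D, a line of mouse myeloblast-like cells that depends on IL-3. The genes were chosen by name, and all 6 were among the 20227 genes that received a value. Il3ra encodes the ligand-binding alpha chain of the IL-3 receptor and Csf2ra that of the GM-CSF receptor. Csf2rb encodes the beta chain shared by the IL-3, GM-CSF and IL-5 receptors, and Csf2rb2 the mouse beta chain that serves the IL-3 receptor alone. Csf3r encodes the G-CSF receptor and Csf1r the M-CSF receptor.

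The 17 arrays fell into 5 groups, and all cells were 32D. The ITD lines (n = 9 arrays, 1 for each of 9 mutants, numbered here 1 to 9) carried human FLT3 with an internal tandem duplication, a class of activating mutation in acute myeloid leukaemia, and grew without IL-3. The wild-type line with ligand (n = 2) carried human wild-type FLT3 and received FLT3 ligand (FL) at 20 ng/mL, and the wild-type line (n = 2) carried the same receptor without added ligand. The vector line (n = 2) carried the empty pLXRN retroviral vector, and the parental line (n = 2) was not transduced. Mouse IL-3 at 1 ng/mL was given to the wild-type, vector and parental lines. The growth protocol does not say outright whether IL-3 stayed in the cultures with FL, and the label of that group can also be read as transduction of the ligand. The transduced lines were mixed populations from retroviral transduction and drug selection. In the titles, both arrays of a control group are labelled as biological replicates. Whether a pair came from 2 independent transductions or from 2 flasks of 1 population is not stated. The spread within pairs may therefore be technical only. The p-values of the fit over all 17 arrays rest on that spread pooled with the spread over the 9 ITD lines, also between control lines. For each of the 6 genes the SD was larger over the ITD lines than within pairs. It ran from 0.20 against 0.16 for Il3ra to 0.53 against 0.084 for Csf2rb. In the ITD lines the mutant receptor and the absence of IL-3 cannot be told apart.

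The IL-3 and GM-CSF receptors are pairs of an alpha and a beta chain: the alpha chain binds the cytokine weakly, the beta chain raises the affinity and carries the kinase JAK2, and signalling runs through STAT5, the Ras pathway and PI3 kinase. The G-CSF receptor pairs with itself and also uses JAK kinases, with STAT3 as a major target, and it drives the late steps of neutrophil formation. The M-CSF receptor is a receptor tyrosine kinase of the same family as FLT3 and is the main receptor for survival and maturation of macrophages. In mouse and human myeloid cells, the transcription factors PU.1 (Spi1) and C/EBP are known to act at the promoters of Csf1r, Csf3r and Csf2ra.

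In GRCm38.p6, per RefSeq, Csf3r lies on chromosome 4 (126023441 to 126044975), Il3ra on chromosome 14 (14345912 to 14355493) and Csf2ra on chromosome 19 (61217191 to 61228461). Csf2rb2 (78282507 to 78305721) and Csf2rb (78325800 to 78351001) are neighbours on chromosome 15.

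RefSeq's promoter table (GRCm38.p6) held 4 of the 6 genes, Il3ra, Csf2ra, Csf2rb2 and Csf3r. The 250 bases before the listed start of the genes whose levels differed in opposite directions between the ITD and wild-type lines, Csf2rb2 and Csf3r, are shown 5′ to 3′ on the strand of the gene. Capitals mark matches to 4 motifs searched on both strands: GAGGAA (the core bound by PU.1), TTGCNNAA (C/EBP), TGTGGT (Runx) and TTCNNNGAA (STAT).
Csf2rb2, chr15:78305722-78305971, minus strand: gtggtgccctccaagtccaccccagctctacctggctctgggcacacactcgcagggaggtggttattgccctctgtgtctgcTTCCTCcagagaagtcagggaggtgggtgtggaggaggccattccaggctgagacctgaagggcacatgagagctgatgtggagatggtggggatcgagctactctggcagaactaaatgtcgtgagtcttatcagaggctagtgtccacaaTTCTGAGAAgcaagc
Csf3r, chr4:126024409-126024658, plus strand: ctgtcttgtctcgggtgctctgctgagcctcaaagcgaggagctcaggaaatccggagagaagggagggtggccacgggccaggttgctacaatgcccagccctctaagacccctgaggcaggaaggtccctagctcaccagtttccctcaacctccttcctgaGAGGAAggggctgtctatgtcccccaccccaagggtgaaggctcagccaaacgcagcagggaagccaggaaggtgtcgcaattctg
The Csf3r window lies inside the annotated span of the gene, downstream of its outermost start. GAGGAA began 86 bases before the start in Csf3r, and its complement began 167 bases before the start in Csf2rb2. A STAT motif began 15 bases before the Csf2rb2 start. In the windows not printed, Il3ra had 1 C/EBP motif (134 bases before the start) and Csf2ra had 2 adjoining GAGGAA (14 and 8 bases). The Il3ra window also lies inside the annotated span of its gene. The end of the Csf2ra window, which holds both GAGGAA, overlaps the annotated span of Csf2ra. Of 32851 promoters of the same length, 23.3% held GAGGAA, 9.56% the C/EBP motif, 14.0% the Runx motif and 7.02% the STAT motif, so the matches describe the letters and mark no known site of binding. No motif overlapped another in the printed windows.

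Affymetrix Mouse Exon 1.0 ST arrays, whose probe sets each read about 1 exon or part of it, gave log2 signals. Each gene value averages the probe sets of that gene alone whose mean over the 17 arrays exceeded 4.599, the median over all probe sets: 26 of 26 for Csf3r, 11 of 11 for Il3ra, 8 of 8 for Csf2rb2, 27 of 28 for Csf2rb, 25 of 33 for Csf1r and 5 of 7 for Csf2ra. A difference is on the log2 scale with the standard error (SE) of a limma fit over all genes, and calls were made where the p adjusted over all 20227 genes by Benjamini-Hochberg was under 0.05. Flt3, whose probe sets partly read the human transgene, averaged 1.57 higher in the wild-type than in the vector line and 1.96 higher in the ITD than in the vector lines, both called. Of 7 myeloblast markers, 6 had a value (not Elane). The granule genes Mpo, Prtn3 and Ctsg and the myeloid precursor gene Ms4a3 averaged 10.96 or more in every group, whereas the stem and progenitor markers Kit (5.50 to 5.75) and Cd34 (5.44 to 5.68) were low in all 5. The mean over the 6 lay between 9.44 and 10.05 on the ITD arrays, against 9.80 to 10.29 on the others. In ITD against the IL-3-grown controls 2 of the 6 fell and none rose, where 8.15% of all genes fell and 11.2% rose. The 2 were Mpo (-0.88 ± 0.18, limma adjusted p = 0.00224) and Ctsg (-0.36 ± 0.05, adjusted p = 1.79e-04). B cell (3 of 4 measured) and T cell (4 of 4) markers averaged 5.08 to 6.01 on all arrays, and none of them was called in ITD against the IL-3-grown controls.

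Csf1r was lowest in the ITD lines, with no overlap with any other array. Csf3r fell in the ITD lines against the wild-type line with ligand, the wild-type line and the vector line, but not against the parental line, which was itself low. Il3ra, Csf2rb and Csf2rb2 differed mainly among the lines grown in IL-3: the parental line was the highest for all 3, and the ITD lines lay near the vector line. Set against the mean of the wild-type, vector and parental lines (the IL-3-grown controls), 3 of the 6 genes fell in the ITD lines (Csf1r, Csf3r and Il3ra) and none rose, where 19.4% of all genes were called, 8.15% lower and 11.2% higher. The median difference was -0.29 over the 6 genes and -0.011 over all genes. Csf1r was also the single member whose 9 ITD arrays all lay below the other 8 arrays, as did 0.934% of all genes. The plot of gene values by array shows these patterns.

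**Figure D1:**
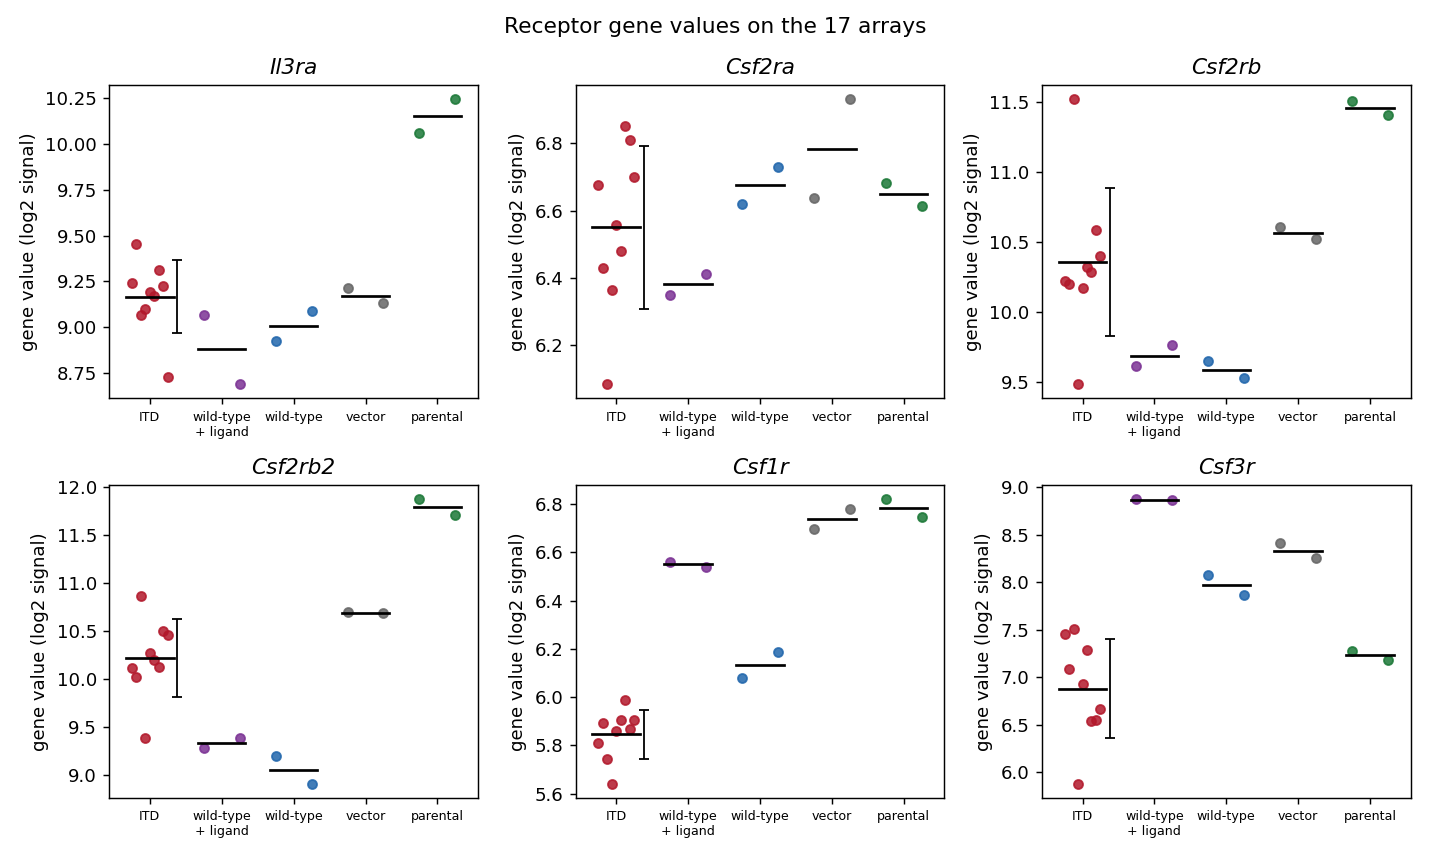
Gene value (log2 signal) of each of the 6 receptor genes on the 17 arrays, by group from the ITD lines (n = 9) to the parental line (n = 2); points are arrays, horizontal lines are group means and the bar beside the ITD lines is 1 SD. The 9 ITD arrays lie below all others for Csf1r, the parental arrays are highest for Il3ra and Csf2rb2, and 1 ITD array reaches the parental level for Csf2rb.

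Il3ra, the alpha chain of the IL-3 receptor, was well expressed in all groups and highest in the parental line. Its values were 9.24, 9.45, 9.07, 9.10, 9.19, 9.17, 9.31, 9.23 and 8.73 in ITD lines 1 to 9. They were 9.07 and 8.69 in the wild-type line with ligand, 8.92 and 9.09 in the wild-type line, 9.21 and 9.13 in the vector line and 10.06 and 10.25 in the parental line. Every ITD array was below both parental arrays, and the ITD arrays overlapped those of the other 3 lines. Against the parental line Il3ra fell by 0.99 ± 0.14 in the ITD lines (limma adjusted p = 1.11e-04), and all 11 probe sets were lower on every ITD array. The transduced control was already down: Il3ra fell by 0.98 ± 0.18 in the vector line against the parental line (adjusted p = 0.00655), the 1 of 6 members called in that comparison and none was higher, where 2.23% of all genes were called, 0.959% lower and 1.27% higher. That call was lost without parental array 2 (adjusted p = 0.0959) or without either vector array (0.0592 and 0.0771), and with the median in place of the mean of the probe sets (0.139).

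Between the ITD lines and the vector line, Il3ra differed by -0.0057 ± 0.14 (adjusted p = 0.986), against the wild-type line by 0.16 ± 0.14 (0.553), and against the wild-type line with ligand by 0.29 ± 0.14 (0.277). The call against the mean of the IL-3-grown controls (-0.28 ± 0.09, adjusted p = 0.0488) turned to 0.078 when the parental line was left out, and it was lost in 16 other alternatives, with adjusted p between 0.0555 and 0.511. In order of level, the vector, ITD, wild-type and wild-type with ligand groups were neighbours whose arrays overlapped, and the parental line alone stood apart.

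Csf2ra, the alpha chain of the GM-CSF receptor, was low and did not pass the test in any of the 8 comparisons. It ranged from 6.08 to 6.85 over the ITD lines (median 6.56), and was 6.35 and 6.41 in the wild-type line with ligand, 6.62 and 6.73 in the wild-type line, 6.64 and 6.93 in the vector line and 6.68 and 6.61 in the parental line. The ITD arrays overlapped every other group. Its difference from the IL-3-grown controls was -0.15 ± 0.10 (adjusted p = 0.343). The value rests on 5 probe sets, the fewest of the 6 genes, and its sign turned under other settings in 5 comparisons.

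Csf2rb, the beta chain shared by the IL-3, GM-CSF and IL-5 receptors, was among the stronger signals and varied most between ITD lines. Its values in ITD lines 1 to 9 were 10.23, 10.20, 11.52, 9.49, 10.18, 10.32, 10.29, 10.59 and 10.40. They were 9.61 and 9.77 in the wild-type line with ligand, 9.65 and 9.53 in the wild-type line, 10.61 and 10.52 in the vector line and 11.51 and 11.41 in the parental line. ITD line 3 thus reached the parental level and ITD line 4 lay below both wild-type groups, and the other 7 lines lay between the wild-type and parental arrays.

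Csf2rb2, the IL-3-specific beta chain, ran alongside it. Its values were 10.11, 10.02, 10.87, 9.39, 10.28, 10.20, 10.13, 10.50 and 10.46 in ITD lines 1 to 9. They were 9.28 and 9.39 in the wild-type line with ligand, 9.20 and 8.91 in the wild-type line, 10.70 and 10.68 in the vector line and 11.88 and 11.71 in the parental line. The ITD arrays lay above both wild-type arrays, below both parental arrays, and on either side of the vector arrays.

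Both beta chains were lower in the ITD than in the parental line: Csf2rb fell by 1.1 ± 0.30 (adjusted p = 0.0157) and Csf2rb2 fell by 1.57 ± 0.23 (adjusted p = 1.69e-04). With Il3ra and Csf1r they made 4 of 6 members lower and none higher in that comparison, where 17% of all genes were called, 6.72% lower and 10.3% higher. The arrays of 3 members (Il3ra, Csf2rb2 and Csf1r) were all lower without overlap, as were those of 9.17% of all genes. All 27 probe sets of Csf2rb and all 8 of Csf2rb2 were lower on average, the 8 also on every ITD array, as is plotted for each probe set. The Csf2rb call was lost without either parental array (adjusted p = 0.140 and 0.118) and with the median in place of the mean of the probe sets (0.0551). Against the vector line neither was called (Csf2rb -0.21 ± 0.30, adjusted p = 0.693; Csf2rb2 -0.47 ± 0.23, adjusted p = 0.196).

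**Figure D2:**
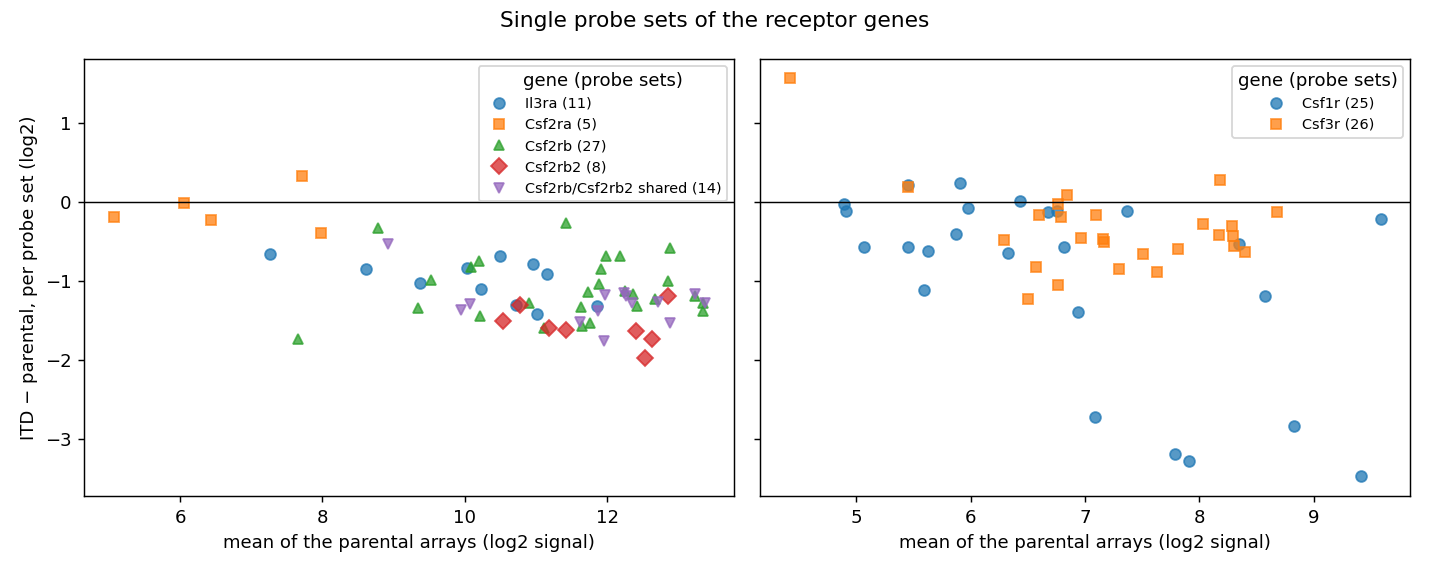
Difference between the ITD and parental means (log2) for each used probe set of the 6 genes and for the 14 probe sets shared by Csf2rb and Csf2rb2, against the parental mean (log2 signal). The probe sets of Il3ra, Csf2rb and Csf2rb2 all lie below 0, whereas those of Csf1r run from near 0 down to -3.48.

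Against the wild-type line the direction was the opposite for the beta chains. Csf2rb2 rose by 1.16 ± 0.23 in the ITD lines (adjusted p = 0.0056), with all 9 lines above both wild-type arrays, and was the single member that rose, where 3.27% of all genes were called higher and 5.57% lay higher with no overlap. All 8 of its probe sets were higher in the ITD lines. Csf2rb was 0.77 ± 0.30 higher and missed the threshold (adjusted p = 0.131, and 0.0363 without ITD line 4), with all 27 probe sets higher on average. Against the wild-type line with ligand Csf2rb2 rose by 0.88 ± 0.23 (adjusted p = 0.0337), where 1.72% of all genes were called higher, and ITD line 4 overlapped that group. None of the members lay higher there without overlap, as 4.47% of all genes did. These calls rested on few control arrays. The first was lost without either wild-type array (adjusted p = 0.0573 and 0.153). The second was lost without either array of the line with ligand (0.293 and 0.226) and when the shared probe sets were included (0.106).

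The control lines also differed among themselves. Csf2rb2 fell by 1.63 ± 0.30 in the wild-type line against the vector line (adjusted p = 0.00297), and Csf1r fell by 0.60 ± 0.12 (adjusted p = 0.0054, but 0.0666 without vector array 2 and 0.0737 without wild-type array 1). These were 2 of 6 members lower and none higher, where 8.22% of all genes were called, 2.71% lower and 5.5% higher. Without overlap, 5 of the 6 members were lower, as were 24.6% of all genes, and none was higher, as were 33.3%. Csf2rb differed by -0.98 ± 0.38 and missed the threshold (adjusted p = 0.132), although 26 of its 27 probe sets were lower on both arrays. An alternative chosen after seeing the data fitted the 8 control arrays alone, which leaves out the spread over the ITD lines. There Csf2rb was called (adjusted p = 4.64e-05), as was Csf3r (-0.36, adjusted p = 0.0253), among 4652 of all 20227 genes. The p-values of that fit rest on the spread within pairs alone, which may be technical only. In the vector line against the parental line, the differences were -0.89 ± 0.38 for Csf2rb (adjusted p = 0.28) and -1.1 ± 0.30 for Csf2rb2 (adjusted p = 0.0649). With the control arrays alone both were called (1.34e-04 and 1.73e-04), among 2773 of all 20227 genes. The descending order for Csf2rb2 was parental, vector, ITD, wild-type with ligand and wild-type. The vector and ITD groups, and the ITD and wild-type with ligand groups, had overlapping arrays.

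Csf2rb and Csf2rb2 are close relatives in sequence, and probe sets that the annotation gave to both genes were left out of both values. Those 14 shared probe sets averaged 10.54 ± 0.54 in the ITD lines (SD, n = 9), 9.80 in the wild-type line with ligand, 9.71 in the wild-type line, 10.84 in the vector line and 11.82 in the parental line (n = 2 each), the same descending order. Probes that carry a single symbol may still bind both transcripts, and this was not tested. Over the 17 arrays the gene values of Csf2rb and Csf2rb2 had r = 0.95, and over the 9 ITD lines r = 0.93, as a description of arrays that share groups and a normalisation.

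The balance of the beta chains on the same array was examined as Csf2rb minus Csf2rb2, which the paralogue plot shows for every array. It averaged 0.14 ± 0.22 in the ITD lines (SD, n = 9) with a range from -0.099 to 0.66. It was 0.34 and 0.38 in the wild-type line with ligand, 0.45 and 0.62 in the wild-type line, -0.083 and -0.16 in the vector line and -0.37 and -0.30 in the parental line. All 9 ITD lines lay above both parental arrays (difference 0.47, two-sided exact permutation p = 0.0364, the smallest that 55 splits allow). Differences were 0.26 from the vector line (exact permutation p = 0.0727), -0.40 from the wild-type line (0.109) and -0.22 from the wild-type line with ligand (0.327). Adjusted over these 4 comparisons none passed 0.05 (0.145 for the first 3), and a ratio on an array shows unequal change of the 2 values, not which one moved. The group means rose from -0.33 (parental) through -0.12 (vector), 0.14 (ITD) and 0.36 (wild-type with ligand) to 0.54 (wild-type). This is the reverse of the order of level of both genes. Unequal response of the probe sets to a shared change was not tested and cannot be told apart from a change in balance.

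**Figure D3:**
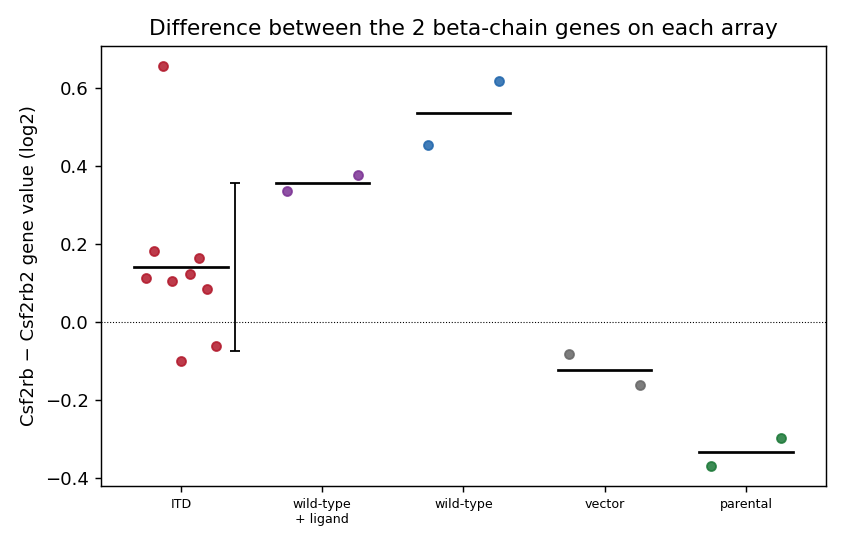
Csf2rb minus Csf2rb2 (log2) on each array, by group from the ITD lines (n = 9) to the parental line (n = 2); horizontal lines are means and the bar is 1 SD of the ITD lines. Parental and vector arrays lie below 0, wild-type arrays lie between 0.34 and 0.62, and 7 of the 9 ITD lines lie between these sets, with ITD line 5 at -0.099 between the vector arrays and ITD line 3 at 0.66.

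Csf1r, the M-CSF receptor, had its lowest values in the ITD lines and varied least among them. Its gene lies on chromosome 18 (61105572 to 61131139, GRCm38.p6). ITD lines 1 to 9 had 5.81, 5.89, 5.74, 5.64, 5.86, 5.90, 5.99, 5.87 and 5.91. The wild-type line with ligand had 6.56 and 6.54, the wild-type line 6.08 and 6.19, the vector line 6.70 and 6.78 and the parental line 6.82 and 6.75. The highest ITD array was below the lowest of all others, and the SD over the 9 lines was 0.10. The ITD values lay within the range of the mean B cell and T cell marker levels on the arrays (5.08 to 6.01). Near such a floor the spread can be narrowed and differences compressed, which was not tested.

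Csf1r fell by 0.71 ± 0.06 against the IL-3-grown controls (adjusted p = 1.86e-06), and all 9 lines were below all control arrays, as were 1.39% of all genes. It fell by 0.71 ± 0.09 against the wild-type line with ligand (adjusted p = 3.25e-04), fell by 0.89 ± 0.09 against the vector line (1.67e-05) and fell by 0.94 ± 0.09 against the parental line (4.68e-06). Against the wild-type line it was -0.29 ± 0.09 and missed the threshold (adjusted p = 0.0732, and 0.0393 without ITD line 7), with all 9 lines below both wild-type arrays, as were 9.33% of all genes. Counts against the vector line were 2 of 6 members lower, where 14% of all genes were called and 5.21% were lower. Both of these, Csf1r and Csf3r, were lower on every ITD array, as were 9.66% of all genes. Csf1r was the 1 member called against the controls when the 12 lines, in place of arrays, were the units (adjusted p = 0.0123). The descending order was parental, vector, wild-type with ligand, wild-type and ITD, and the parental and vector arrays were the only neighbours that overlapped.

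The probe sets of Csf1r did not move as one. Against the parental line 22 of 25 were lower in the ITD lines, but the differences ran from -3.48 to 0.24, and 8 were lower by more than 1. Those 8 averaged 5.36 in the ITD lines, 6.62 in the wild-type line with ligand, 5.72 in the wild-type line, 6.81 in the vector line and 7.77 in the parental line. The other 17 averaged 6.07 in the ITD lines, 6.52 in the wild-type line with ligand, 6.33 in the wild-type line, 6.71 in the vector line and 6.32 in the parental line, so among them the vector line and not the parental line was highest. In the vector line against the parental line 6 of the 8 were lower by more than 1, and 3 of the other 17 were higher by more than 1, although the gene value differed by only -0.046 ± 0.12. The split was made on these values and is given without a test. The gene mean therefore averages probe sets that moved differently, and whether they read different transcripts was not tested.

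Csf3r, the G-CSF receptor, had the widest range over all 17 arrays. Its values in ITD lines 1 to 9 were 7.46, 7.09, 7.51, 5.88, 6.93, 7.28, 6.54, 6.55 and 6.67. They were 8.88 and 8.86 in the wild-type line with ligand, 8.07 and 7.87 in the wild-type line, 8.41 and 8.25 in the vector line and 7.28 and 7.18 in the parental line. All ITD arrays lay below the 2 wild-type groups and the vector line, and on either side of the parental arrays.

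The fall of Csf3r was largest against the wild-type line with ligand, at -1.99 ± 0.29 (adjusted p = 6.70e-04), and there Csf1r and Csf3r were the 2 members lower, where 5.8% of all genes were called and 4.08% were lower. Both were lower on every ITD array, as were 9.07% of all genes. It fell by 1.45 ± 0.29 against the vector line (adjusted p = 0.0035) and fell by 1.09 ± 0.29 against the wild-type line (adjusted p = 0.032), where it was the 1 member lower and 7.71% of all genes were called, 4.44% lower. Against the parental line it was -0.35 ± 0.29 (adjusted p = 0.499). The fall against the IL-3-grown controls was 0.97 ± 0.20 in size (adjusted p = 0.00267), but the adjusted p was 0.119 with the 12 lines as units. The vector call was lost without either vector array (adjusted p = 0.0747 and 0.052), and the wild-type call without either wild-type array (0.268 and 0.2). Of the 26 probe sets, 25 were lower in the ITD lines than in the vector line, and 25 than in each wild-type group.

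Among the controls, Csf3r differed by 1.1 ± 0.38 in the vector line against the parental line (adjusted p = 0.155), with all 26 probe sets higher. It was the 1 member that lay higher without overlap in that comparison, as did 29.3% of all genes, and 3 lay lower (Il3ra, Csf2rb and Csf2rb2), as did 25.7%. With ligand it was 0.90 ± 0.38 higher than in the wild-type line without it (adjusted p = 0.583), again on all 26 probe sets. In that comparison limma called 0% of all genes at an adjusted p under 0.05, and 1555 genes had an unadjusted p under 0.05. Of the 6 members Csf1r (0.42 ± 0.12, adjusted p = 0.456) and Csf3r lay higher and without overlap with ligand, as did Csf2rb2 (0.28 ± 0.30, adjusted p = 0.884), where 25% of all genes did. Csf2ra was the 1 member lower without overlap (-0.30 ± 0.20, adjusted p = 0.771), where 22.8% of all genes were. Fitted on the control arrays alone, Csf3r was called with ligand (adjusted p = 0.00225) and in the vector line against the parental line (1.59e-04). That fit called 1148 and 2773 of all 20227 genes in these comparisons. The plot of differences sets the 4 comparisons side by side.

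**Figure D4:**
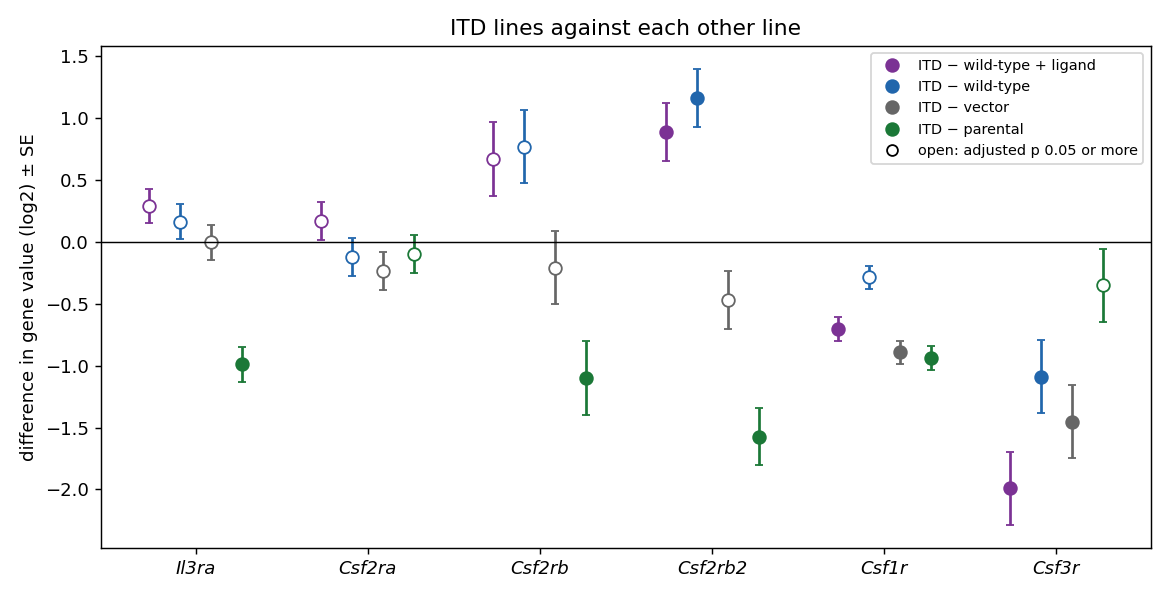
Difference in gene value between the ITD lines (n = 9) and each other line (n = 2 each), with the SE of the fit (log2); filled points had an adjusted p under 0.05. Csf1r and Csf3r lie below 0 in all 4 comparisons, and Csf2rb2 lies above 0 against both wild-type groups and below 0 against the vector and parental lines.

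Markers of other blood cell types moved with these genes in some comparisons and not in others, and their part in the results was not tested. In bulk RNA, fewer cells of a type and less RNA per cell cannot be told apart. Beside Csf3r, 8 of 12 mature neutrophil markers fell and 1 rose against the IL-3-grown controls (8.15% and 11.2% of all genes), and their mean level was 7.70 to 8.75 on the ITD arrays, against 8.82 to 8.89 in the wild-type line with ligand, 9.04 to 9.15 in the wild-type line, 9.41 to 9.42 in the vector line and 9.41 to 9.48 in the parental line. The parental line, low in Csf3r, overlapped the vector line in these markers, and both lay above the other groups. Beside Csf1r, 6 of 11 measured monocyte and macrophage markers fell and none rose (again 8.15% and 11.2% of all genes), with mean levels of 6.36 to 7.14 on the ITD arrays, 7.64 to 7.72 in the wild-type line with ligand, 7.57 to 7.58 in the wild-type line, 7.63 to 7.72 in the vector line and 6.75 to 6.86 in the parental line. The parental line, high in Csf1r, overlapped the ITD arrays in these markers. No neutrophil or macrophage marker averaged below 4.599 in any group, although Ly6g was near it in the ITD lines at 4.66. That check decides little, because only probe sets averaging above 4.599 over the 17 arrays were used. The mean B cell and T cell marker levels on the arrays (5.08 to 6.01) lay higher. In the ITD lines Ly6g and the macrophage marker Cd14 (4.79) averaged below that range, and Mpeg1 (5.64) within it. The macrophage markers Ctss (6.27) and Adgre1 (8.59) and the neutrophil marker S100a9 (10.19) averaged above it.

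Beside the beta chains, 9 mast cell and basophil markers averaged 7.68 to 8.68 on the ITD arrays, 7.0 to 7.04 in the wild-type line with ligand, 7.06 to 7.22 in the wild-type line, 8.16 to 8.21 in the vector line and 9.62 to 9.81 in the parental line. In the ITD lines 3 of the 9 rose against the wild-type line, where 3.27% of all genes rose, and 4 fell against the parental line, where 6.72% of all genes fell. The 5 measured eosinophil markers (of 7) averaged 6.53 to 8.62 on the ITD arrays, 5.45 to 5.50 in the wild-type line with ligand, 5.43 to 5.68 in the wild-type line, 7.55 on both vector arrays and 8.96 to 9.20 in the parental line. Of these, 3 rose against the wild-type line and 1 fell against the parental line. Il5ra and Ccr3 were below 4.599 in the wild-type line with ligand and Prg3 in the wild-type line. The 4 measured erythroid markers averaged 7.43 in the ITD lines, 6.30 in the wild-type line with ligand, 6.07 in the wild-type line, 7.12 in the vector line and 8.02 in the parental line. The 4 megakaryocyte markers averaged 8.33 in the ITD lines, 7.52 in the wild-type line with ligand, 7.30 in the wild-type line, 7.93 in the vector line and 8.71 in the parental line. Each of these 4 lists was highest in the parental line and lowest in the 2 wild-type groups, as Csf2rb and Csf2rb2 were.

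The 9 ITD lines were then compared with each other. None of the 6 members passed the test of variation, a one-sided F test that sets the variance between the ITD arrays over that within the 4 control pairs, where 2.55% of all genes did. Csf2rb (SD 0.53, F = 39.9, adjusted p = 0.0519) and Csf3r (SD 0.52, F = 28.4, adjusted p = 0.0641) were nearest to the threshold. With a stricter cut-off for dim probe sets both were called (adjusted p = 0.0325 and 0.0383). Csf2rb was also called without line 1, 2, 5, 6 or 8 (adjusted p between 0.0438 and 0.05), but without line 3 its F dropped to 14.6 (adjusted p = 0.0989) and without line 4 to 28.4 (0.0771). Without line 4 the F of Csf3r dropped to 15.9 (0.11). Csf2rb2 (SD 0.41, F = 10.8, adjusted p = 0.13) was the 1 member called with the median of the probe sets (0.046), a setting under which Csf2rb was at 0.121 and Csf3r at 0.105, and without line 4 its F was 5.03 (0.26). Il3ra (SD 0.20), Csf2ra (0.24) and Csf1r (0.10) varied less. Each mutant had 1 array, so no single line was tested.

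ITD line 3 was the highest line for Csf2rb, Csf2rb2 and Csf3r, at 1.17, 0.65 and 0.63 above the mean of the 9 lines, and the lowest for Csf2ra. ITD line 4 was the lowest for the same 3 genes, at -0.87, -0.83 and -1.0, and also for Csf1r. Line 4 likewise had the lowest mean of neutrophil markers (7.70) and of macrophage markers (6.36). For Csf2rb all 27 probe sets were higher in line 3 than in every other ITD line, by 0.64 to 2.80 above the median of those lines. The largest gap was on 1 probe set at 10.94 in line 3, against 7.52 to 9.02 on the other 16 arrays, and the next was 1.68. The 14 shared probe sets behaved alike, with all 14 highest among the ITD lines in line 3 and 1 of them at 10.98 against 7.36 to 9.11 elsewhere. For Csf2rb2, 7 of 8 probe sets were highest in line 3, by 0.31 to 1.11 over the median of the other lines for all 8. Without line 3 the ITD mean of Csf2rb was 10.21.

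**Figure D5:**
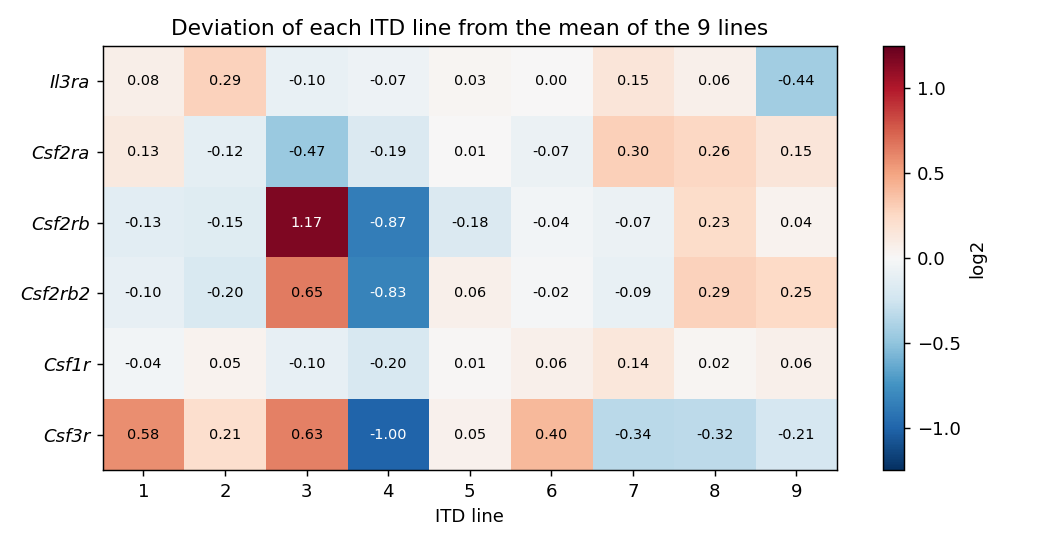
Deviation of each ITD line from the mean of the 9 lines (log2) for the 6 receptor genes, 1 array per line; red is above and blue below the mean. Line 3 is the highest for Csf2rb (1.17), Csf2rb2 and Csf3r, and line 4 is the lowest for these genes and for Csf1r.

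Of the 6 ligand genes of these receptors, 1 fell and none rose against the IL-3-grown controls (8.15% and 11.2% of all genes), with a median difference of -0.13. Csf1, which encodes M-CSF, was the one that fell (-1.33 ± 0.31, adjusted p = 0.00593). It averaged 8.41 ± 0.83 in the ITD lines (SD, n = 9), 9.50 in the wild-type line with ligand, 10.09 in the wild-type line, 10.19 in the vector line and 8.94 in the parental line. Csf1 ranged from 6.94 to 9.84 over the ITD lines and was called for variation among them (adjusted p = 0.0399). Against the parental line it was not called (-0.53 ± 0.46, adjusted p = 0.511).

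Il34, the second ligand of the M-CSF receptor, averaged 7.09 in the ITD lines, 6.21 in the wild-type line with ligand, 6.03 in the wild-type line, 7.04 in the vector line and 8.79 in the parental line. It rose by 1.07 ± 0.20 against the wild-type line (adjusted p = 0.00357) and fell by 1.70 ± 0.20 against the parental line (1.95e-05), the directions that Csf2rb2 took. The other ligand genes were not called against the IL-3-grown controls and rest on few probe sets. The gene of IL-3 itself, Il3, was at 0.37 ± 0.24 (1 probe set), Csf2, the gene of GM-CSF, at -0.061 ± 0.28 (1), Il5 at -0.022 ± 0.17 (2) and Csf3, the gene of G-CSF, at -0.24 ± 0.13 (4). Over the 17 arrays Csf2 (3.76 to 5.83), Csf3 (4.91 to 5.85) and Il5 (5.12 to 6.41) lay near or below the mean B cell and T cell marker levels (5.08 to 6.01). Their expression is therefore not shown. Il3 lay at 5.76 to 7.73.

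Of 13 transcription factors known at receptor promoters of myeloid cells, 3 rose and 6 fell against the IL-3-grown controls (11.2% and 8.15% of all genes), with a median difference of -0.19. Spi1, which encodes PU.1, fell by 0.83 ± 0.07 (adjusted p = 1.47e-06). Its ITD arrays lay between 8.85 and 9.29, below the means of 9.72 in the wild-type line with ligand, 9.74 in the wild-type line, 10.26 in the vector line and 9.95 in the parental line, and it was called lower against each of these. Cebpd, a C/EBP family member, fell by 1.28 ± 0.14 (adjusted p = 1.14e-05) and was also called lower against each line. Gfi1, a repressor needed for neutrophil formation, fell by 1.05 ± 0.13 (3.28e-05). Gata1, a factor of erythroid, mast and eosinophil lineages, rose by 0.73 ± 0.20 (0.0156), and averaged 8.85 in the ITD lines, 6.81 in the wild-type line with ligand, 6.5 in the wild-type line, 8.36 in the vector line and 9.51 in the parental line.

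Of 15 measured kinases and signal carriers below the receptors, 2 rose and 2 fell, with a median difference of -0.019. This count lies near the background of 11.2% higher and 8.15% lower. Sos1, an exchange factor for Ras, rose by 0.67 ± 0.14 (adjusted p = 0.00285) and Pik3cd, a catalytic subunit of PI3 kinase, rose by 0.38 ± 0.09 (0.00542). Sos1 was 7.71 to 8.80 on the ITD arrays, 8.69 and 8.86 in the wild-type line with ligand and 8.59 and 8.27 in the wild-type line. It was 7.29 and 7.30 in the vector line and 7.35 and 7.09 in the parental line. The tyrosine kinase gene Fes fell by 0.53 ± 0.10 (0.00114) and Jak2 fell by 0.28 ± 0.08 (0.0163). Against the wild-type line alone 5 of the 15 rose and none fell, where 3.27% of all genes rose and 4.44% fell. Among the 5 were Stat5a (0.58 ± 0.11, adjusted p = 0.00361) and Stat5b (0.48 ± 0.13, adjusted p = 0.0338). Stat5a was 9.79 to 10.35 on the ITD arrays, 9.62 and 9.53 in the wild-type line, 10.53 and 10.42 in the vector line and 10.23 and 10.29 in the parental line. Stat5b was 9.19 to 9.90, 9.29 and 9.13, 9.80 and 9.72, and 9.85 and 9.74 in the same order. In the wild-type line against the vector line 4 of the 15 fell and 1 rose, where 2.71% of all genes fell and 5.5% rose. Of 11 inhibitors of receptor signalling 1 fell and none rose against the IL-3-grown controls (median 0.033), namely the adaptor gene Dok1, which fell by 0.35 ± 0.10 (adjusted p = 0.0188).

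Of 5 target genes shared by these receptors, 4 rose and none fell against the IL-3-grown controls (11.2% and 8.15% of all genes), with a median difference of 0.59. Id1 rose by 0.71 ± 0.10 (adjusted p = 7.42e-05), Myc rose by 0.61 ± 0.07 (2.64e-05), Osm, the gene of oncostatin M, rose by 0.59 ± 0.13 (0.00397), and Bcl2l1, which encodes the survival protein BCL-XL, rose by 0.57 ± 0.09 (3.46e-04). The kinase gene Pim1 was at 0.077 ± 0.068 (0.473). Against the wild-type line with ligand none of the 5 was called, where 1.72% of all genes were called higher and 4.08% lower. Against the wild-type line 1 rose, Myc (0.55, adjusted p = 0.00551), where 3.27% of all genes were called higher and 4.44% lower. Of 16 other measured cytokine and growth factor receptors 3 fell and none rose against the IL-3-grown controls (median -0.13), where 8.15% of all genes were called lower and 11.2% higher. This count lies near the 19.4% of all genes called in either direction. The 3 were Il2rb, a chain of the IL-2 and IL-15 receptors (-0.48 ± 0.12, adjusted p = 0.00896), Tnfrsf1a, a receptor of tumour necrosis factor (-0.29 ± 0.09, adjusted p = 0.0281), and Ifngr1, a chain of the interferon gamma receptor (-0.24 ± 0.07, adjusted p = 0.0213).

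The genes most like each member were taken as the 3 with the highest Pearson r over the 17 arrays, among 4002 genes with at least 3 used probe sets and a range of at least 1. The correlations describe arrays that share groups and are given without a test. For Csf3r they were Lbp (r = 0.96), the macrophage marker gene Adgre1 (0.93) and Rilpl2 (0.93), with r between 0.80 and 0.88 over the 9 ITD lines alone. For Csf1r they were Cyba, a subunit of the phagocyte NADPH oxidase, the inhibitory receptor gene Pirb and the lysozyme gene Lyz1 (each 0.94), with r of 0.62 to 0.66 over the ITD lines. For Csf2rb2 they were Homez (0.94), the chemokine receptor gene Cxcr4 (0.93) and Plac8 (0.93), with r of 0.48 to 0.63 over the ITD lines. For Csf2rb they were Gpr34 (0.90), Homez (0.89) and 6330418K02Rik (0.88), with r of 0.67 to 0.85 there. For Il3ra they were the tetraspanin gene Cd37 (0.92), the melanocortin receptor gene Mc1r (0.91) and Mirt1 (0.90), with r of 0.53 to 0.65 there. For Csf2ra the highest were Dhtkd1 (0.82), Ucma (0.81) and Plod2 (0.80), with r of 0.74 to 0.90 there. Between members of different receptors, r over the 17 arrays was 0.71 for Csf2rb2 and Il3ra, 0.63 for Csf3r and Csf1r and -0.22 for Csf3r and Csf2rb2. Over the 9 ITD lines the same pairs had r = -0.27, 0.20 and 0.60.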

How the data were processed

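RNA of 17 cultures of 32D cells was hybridised to Affymetrix Mouse Exon 1.0 ST arrays. For each probe set the authors deposited a log2 signal, and the submitters' processing notes name RMA and Affymetrix Expression Console 1.1. The genome build and filter behind them are not given in the sources used here. Medians over all probe sets were 4.63 to 4.69 (log2) per array. Precision is limited by how many arrays there are.

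Of 1256831 probe sets, 325444 had a symbol, 6684 of them several, and those were left out. Symbols were updated through RefSeq (18006 of 22296 current, 4227 changed, 63 kept). Probe sets above the median row mean (237584) were averaged per gene. Group means were fitted with limma 3.58.1 in R 4.3.3 (lmFit, eBayes with a trend, 12 residual and 4.49 prior degrees of freedom), with 8 two-sided contrasts and Benjamini-Hochberg adjustment over all genes within each. Variation among ITD lines was tested by a one-sided F ratio with 8 and 4 degrees of freedom. The fit was tested on simulated data.

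The members, gene lists, tests and alternatives were chosen with earlier results of these data known. Named were the 6 members in every comparison, the 3 genes most like each, up to 4 called genes of each list, and all genes of lists of 6 or fewer. Stat5a and Stat5b and the 8 and 17 probe sets of Csf1r were chosen after their values were seen. Alternatives changed the probe set summary and filter, the normalisation, the variance trend, the control lines and the arrays used. Same-numbered control arrays did not deviate together (r between -0.118 and 0.0917 across genes), so no pairing was assumed.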

Additional observations from a re-analysis of the deposited data

Results flagged for a closer look

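ITD line 3 stood apart from the other ITD lines in the difference between the beta-chain genes, Csf2rb minus Csf2rb2, at 0.66 against -0.099 to 0.18 in the other 8 lines. The gap to the nearest line was 0.63 of the range, above Dixon's 95% critical value for 9 samples. Chance would place about 1 in 20 groups beyond it, and 8 values were examined. The gene values of Csf2rb and Csf2rb2 alone, the 14 shared probe sets and the other 4 genes did not pass this limit.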

How the results depend on the processing

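Csf1r and Csf3r kept their direction in the 5 ITD comparisons under every alternative run. The count of members called against the IL-3-grown controls was 5 without the wild-type line and 1 with the 12 lines as units, against 3 as reported. Of all 20227 genes, 4527, 466 and 3917 were called in these 3 fits. Without the parental line that comparison gave 0.078 for Il3ra, 0.28 for Csf2rb and 0.35 for Csf2rb2, which turned the direction. Other reversals were of small differences: Csf2ra stood at 0.0095 in ITD against wild-type under the stricter filter, at -0.079 in ITD against wild-type with ligand and 0.076 in wild-type with ligand against wild-type with the median of the probe sets, and at -0.055 in vector against parental with no filter, where Csf1r was 0.12. Leaving out 1 array at a time, Il3ra ranged from -0.048 to 0.049 in ITD against vector and from -0.31 to 0.062 in wild-type with ligand against wild-type, and Csf2ra from -0.26 to 0.038 in wild-type against vector and from -0.011 to 0.28 in vector against parental. Members called then ranged from 2 to 3 against the IL-3-grown controls, 1 to 2 in ITD against vector, 0 to 3 in ITD against wild-type (0 without either wild-type array), 2 to 3 in ITD against wild-type with ligand, 3 to 4 in ITD against parental, 1 to 2 in wild-type against vector, 0 to 1 in vector against parental and 0 to 1 for variation. With the median of the probe sets vector against parental had 0 members called and variation had 1 (Csf2rb2), and variation had 2 (Csf2rb and Csf3r) under the stricter filter.

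Same-numbered control arrays shared only a number. With the replicate number as a block, fitted on the 8 control arrays, 1 member was called in wild-type with ligand against wild-type (864 genes), 4 in wild-type against vector (4382 genes) and 4 in vector against parental (2418 genes). The control arrays alone without the block, added after seeing the data, gave 1 (Csf3r), 4 (with Csf2rb and Csf3r added) and 4 members (with Csf2rb, Csf2rb2 and Csf3r added) and 1148, 4652 and 2773 genes, against 0, 1662 and 451 genes as reported. Over all genes, ITD against the IL-3-grown controls had 3917 called, but 2491 without the vector line and 466 with the 12 lines as units. Without 1 control array the counts fell to between 1400 and 1760 of 3439 (parental), 706 and 791 of 2838 (vector), 281 and 308 of 1559 (wild-type, and 2463 without ITD line 7) and 243 and 245 of 1173 (wild-type with ligand), to between 456 and 599 in wild-type against vector, and to between 105 and 149 in vector against parental. Another quantile normalisation gave 1 gene in wild-type with ligand against wild-type and 681 in vector against parental. Genes called for variation were 516 as reported, 50 with the median, 1213 under the stricter filter, 226 without line 4 and 157 without line 7. A control line left with 1 array has a wider SE in its comparisons, which by itself lowers such counts. In ITD against wild-type, Csf3r was -1.09 (SE 0.29) as reported, and -0.99 and -1.20 (SE 0.41) without either wild-type array. Csf2rb2 was 1.16 (SE 0.23) as reported, and 1.30 and 1.02 (SE 0.32) in the same fits. Apart from this widening, the causes of the shifts were not tested.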
